A study of Mus musculus with 52 samples.

Results

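Untreated astrocytes cultured from Apoe knockout mice were compared with untreated wild-type astrocytes in 3 libraries each, 6 of the 52 libraries of the series. The members were chosen by their labels, as the untreated knockout and untreated wild-type cultures, and by no measured value. The series holds 27 astrocyte and 25 brain libraries of C57BL/6 mice, and its title concerns lipid-laden reactive astrocytes in epilepsy. Both groups are primary astrocytes without added lipid or neuronal medium, one labelled as wild type and the other as APOE KO. The title of knockout 3, unlike those of the other 5 libraries, begins with mix, a word that the labels do not explain. Neither the labels nor the protocols used here state the age or sex of the donor mice, the brain region, the knockout allele or how many cultures stand behind a library. Nothing says that libraries came from separate cultures, so the p-values below measure only how far libraries spread within groups, and that spread may be technical.

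Astrocytes are the glial cells that take up glutamate and potassium around synapses, pass lactate and lipids to neurons, and become reactive after injury. Apolipoprotein E is the main protein of the lipoprotein particles that astrocytes secrete, and carries cholesterol and phospholipid to receptors on neurons and other cells. Cells hold their sterol content by a loop in which the SREBP2 factor, escorted by SCAP and retained by INSIG proteins when sterol is plentiful, switches on the genes of cholesterol synthesis.

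Levels are in TPM, a transcript abundance unit scaled to gene length and library total, and read depth is unknown. The 6 libraries totalled 992365 to 994188 TPM and listed 14410 to 14553 genes at 1 TPM or more. Mitochondrial genes took 5.52% to 6.83% of TPM. Differences are knockout minus wild type after log2(TPM + 1), a transform that makes the changes of low genes look smaller than they are. Each is given with its standard error (SE) from limma, a linear model with variance shared across genes. The model was fitted to all 27 astrocyte libraries in 9 groups, so each SE also takes in the spread of the treated groups. A gene that did not pass can therefore have untreated groups that do not overlap. A gene was called where the limma p adjusted over all 16161 genes tested was under 0.05. Correlations of log2 levels were 0.982 to 0.983 within wild type, 0.985 to 0.987 within knockout and 0.936 to 0.94 between the groups. The library titled mix is among those of the knockout range. Members of the gene lists beyond the 4 with the smallest p in each direction were named for their role, after their values were seen.

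Markers of sex and of brain region differed between the groups, and their part in the differences below was not tested. Xist, the RNA that silences an X chromosome in female cells, stood at 36.8, 30.7 and 36.3 TPM in wild type and 3.81, 2.79 and 2.93 TPM in knockout (log2 -3.09 ± 0.19, limma adjusted p = 1.03e-11). The Y-linked demethylase gene Kdm5d stood at 6.65, 5.62 and 6.62 TPM in wild type and 14, 12.6 and 12.6 TPM in knockout (log2 0.95 ± 0.19, limma adjusted p = 0.000346). Xist was thus high in all wild-type libraries and Kdm5d in all knockout libraries, with no overlap, and both transcripts were present in both groups. Another Y-linked gene, Ddx3y, had 19.1, 14.9 and 18.8 TPM against 33.5, 32 and 31.3 TPM (log2 0.85 ± 0.37, limma adjusted p = 0.0653) and did not pass, although it passed in a fit of only the 6 untreated libraries, with the same difference. It also passed without the palmitic acid libraries, a setting chosen after seeing the data. Knockout libraries with palmitic acid were uneven for Ddx3y, at 1.86, 15.7 and 9.91 TPM. Genotype, sex composition and culture source cannot be told apart in this design.

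The targeted gene was measured first. Apoe (ENSMUSG00000002985, chromosome 7, 19696109 to 19699188 in GENCODE M21 on mm10) stood at 4234, 4787 and 5024 TPM in wild type and at 40.4, 47.1 and 43.5 TPM in knockout. Every knockout library was far below every wild-type library, a 107-fold lower mean (log2 -6.71 ± 0.10, limma adjusted p = 5.75e-22). A residual level remained in all knockout libraries, and which part of the gene it came from was not analysed here. Across all genes, 3855 were higher in knockout (23.9% of those tested) and 3403 were lower (21.1%), 44.9% in all. With a log2 difference of at least 1 as well, 642 were higher (3.97%) and 1070 were lower (6.62%). The libraries of the groups did not overlap for 9961 genes (61.6%), and the median log2 difference of all genes was 0.05. The counts of the gene groups below are to be read against these shares. In cultures that may hold several cell types, fewer cells of a type and less RNA per cell cannot be told apart.

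**Figure D1:**
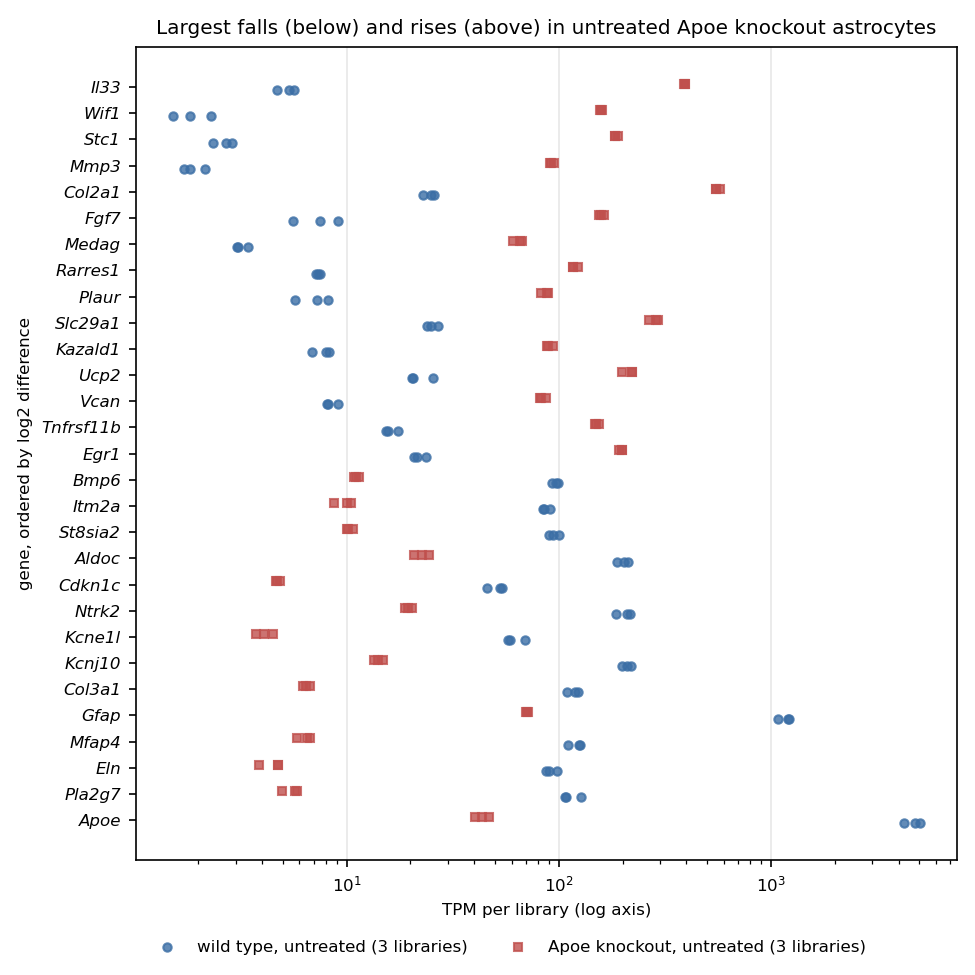
TPM in each library (log axis) of 14 of the 15 largest falls and the 15 largest rises, by log2 difference, in untreated Apoe knockout against wild-type astrocytes; circles are the 3 wild-type and squares the 3 knockout libraries. The symbols of the groups are apart for every gene shown, as the choice of genes without overlap required, from Apoe at the bottom to Il33 at the top.

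The largest rises included genes for secreted signals and for matrix. The 15 named here were taken by size among genes above the median level, with no overlap between groups. Il33 (chromosome 19, 29925114 to 29960718), an alarmin cytokine kept in the nucleus of glia and barrier cells, was at 5.33, 4.7 and 5.67 TPM in wild type and 389, 392 and 393 TPM in knockout (log2 5.98 ± 0.13, limma adjusted p = 7.05e-19). Wif1 (chromosome 10, 121033960 to 121100650), a secreted inhibitor of WNT ligands, was at 1.52, 1.83 and 2.29 TPM against 159.9, 158 and 156 TPM (log2 5.79 ± 0.13, limma adjusted p = 7.65e-19). Stc1 (chromosome 14, 69029238 to 69041804), a secreted glycoprotein hormone, went from 2.9, 2.69 and 2.35 TPM to 191, 184 and 184 TPM (log2 5.68 ± 0.13, limma adjusted p = 1.05e-18). All 3 genes were low in every wild-type library and high in every knockout library. Mmp3, a matrix metalloproteinase, had 2.16, 1.72 and 1.83 TPM against 92.1, 94.5 and 91 TPM (log2 5.01 ± 0.18, limma adjusted p = 1.17e-15). Col2a1, the collagen chain of cartilage, had 25.1, 25.9 and 22.9 TPM against 552, 549 and 577 TPM (log2 4.45 ± 0.09, limma adjusted p = 4.64e-19). Fgf7, a growth factor for epithelia, had 9.13, 7.53 and 5.6 TPM against 163, 154 and 158 TPM (log2 4.27 ± 0.33, limma adjusted p = 5.03e-10). The wild-type libraries were less even for Fgf7 than for the others, yet none came near the knockout level. The SE of Fgf7 also takes in the treated groups, such as knockout with palmitic acid (mean 88.7, standard deviation 52.8 TPM). Medag, linked to fat cell formation, rose by log2 3.97 ± 0.16 (limma adjusted p = 8.73e-15) and Rarres1, a retinoid-responsive gene, by 3.84 ± 0.10 (limma adjusted p = 6.49e-18). Plaur, the urokinase receptor, rose by 3.45 ± 0.10, and Slc29a1, a nucleoside transporter that carries adenosine, by 3.43 ± 0.12 (limma adjusted p = 2.11e-17 and 4.58e-16). Kazald1 (3.40 ± 0.10), the mitochondrial carrier gene Ucp2 (3.22 ± 0.12), the proteoglycan gene Vcan (3.16 ± 0.29), the decoy receptor gene Tnfrsf11b (3.15 ± 0.22) and the activity-induced factor gene Egr1 (3.11 ± 0.28) completed the 15.

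The largest falls, after Apoe, held genes of mature astrocytes beside genes of elastic and fibrillar matrix. Pla2g7 (chromosome 17, 43568098 to 43612201), the secreted phospholipase that degrades platelet-activating factor, was at 108, 107 and 127 TPM in wild type and 5.7, 5.81 and 4.98 TPM in knockout (log2 -4.14 ± 0.14, limma adjusted p = 4.38e-16). Gfap (chromosome 11, 102887336 to 102900912), the intermediate filament by which astrocytes are recognised, was at 1080.2, 1206 and 1223 TPM against 70.6, 71.5 and 70.3 TPM (log2 -4.02 ± 0.08, limma adjusted p = 1.96e-19). The knockout Gfap values lay within a narrow band, and the lowest wild-type library was still over 10 times the highest of them. Kcnj10, the inward rectifier channel through which astrocytes clear potassium, had 199, 209.9 and 219 TPM against 14.1, 14.8 and 13.4 TPM (log2 -3.80 ± 0.13, limma adjusted p = 1.01e-15). Aldoc, a glycolytic aldolase used as an astrocyte marker, had 189, 212 and 204 TPM against 24.3, 20.8 and 22.7 TPM (log2 -3.10 ± 0.08, limma adjusted p = 8.69e-18). These channel and enzyme genes kept a low level in every knockout library. Ntrk2, the receptor for brain-derived neurotrophic factor, fell from 186, 209 and 217 TPM to 20.4, 19.4 and 18.8 TPM (log2 -3.32 ± 0.10, limma adjusted p = 9.81e-17). Eln, the gene of tropoelastin, fell from 89.8, 98.5 and 87.1 TPM to 4.77, 3.86 and 4.76 TPM (log2 -4.09 ± 0.10, limma adjusted p = 1.21e-18). Mfap4 (-4.04 ± 0.11), Col3a1 (-3.99 ± 0.17), the channel subunit gene Kcne1l (-3.62 ± 0.11), the cell cycle inhibitor gene Cdkn1c (-3.17 ± 0.12), the polysialyltransferase gene St8sia2 (-3.08 ± 0.12), Itm2a (-3.04 ± 0.12) and the growth factor gene Bmp6 (-3.00 ± 0.08) were also among the 15.

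Plin2 and Adora2a, which stand in the series for lipid droplets and for the adenosine A2a receptor, did not pass. Plin2 had 81.2, 87.1 and 84.6 TPM in wild type and 87.6, 87.3 and 93.9 TPM in knockout (log2 0.09 ± 0.06, limma adjusted p = 0.226). Its knockout libraries all lay above the wild-type ones, by a margin small against the shared spread. Adora2a had 0.18, 0.2 and 0.59 TPM against 0.67, 0.6 and 0.33 TPM (log2 0.22 ± 0.14, limma adjusted p = 0.208), so it was under 1 TPM everywhere and the groups overlapped. It passed at 0.36 log2 without wild type 3, its highest wild-type library.

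Genes of cholesterol synthesis were lower in knockout along most of the pathway. Of 28 genes of synthesis and its control, all of which reached the filter on low values, 23 were lower, 2 were higher and 3 did not pass, with a median log2 difference of -0.80 (all genes 23.9% higher, 21.1% lower, median 0.05). At the entry of the pathway, Hmgcs1, which makes HMG-CoA, was at 243, 221 and 237 TPM in wild type and 57, 54.9 and 56 TPM in knockout (log2 -2.04 ± 0.20, limma adjusted p = 2.31e-08). Hmgcs1 was thus lower in every knockout library, without overlap. Of the enzymes that lead from mevalonate to squalene, Mvk (-0.57 ± 0.09), Pmvk (-0.56 ± 0.06), Mvd (-0.94 ± 0.10), Idi1 (-1.63 ± 0.30), Fdps (-1.13 ± 0.11) and Fdft1 (-1.10 ± 0.07) were all called lower. Sqle, the epoxidase that commits squalene to sterols, stood at 133, 131 and 128 TPM against 51.3, 47.8 and 52 TPM (log2 -1.36 ± 0.06, limma adjusted p = 5.88e-14). Among the enzymes that form lanosterol and turn it into cholesterol, Cyp51 (-1.44 ± 0.10), Msmo1 (-1.32 ± 0.07), Nsdhl (-1.28 ± 0.06), Sc5d (-1.08 ± 0.14), Dhcr7 (-0.97 ± 0.10), Lss (-0.62 ± 0.10), Hsd17b7 (-0.67 ± 0.13) and Tm7sf2 (-0.30 ± 0.12) were lower. Ebp, the isomerase between them, went the other way, from 23.8, 26.2 and 21.1 TPM to 62, 62.6 and 67.1 TPM (log2 1.40 ± 0.10, limma adjusted p = 9.45e-11). Ebp therefore rose in all knockout libraries while its neighbours in the pathway fell.

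In the control loop, the factor gene Srebf2 (-0.53 ± 0.07), its escort Scap (-0.40 ± 0.08) and the retention gene Insig1 (-1.16 ± 0.10) were lower, as were the sterol carrier genes Stard4 (-1.20 ± 0.14) and Npc1 (-0.24 ± 0.09) and the thiolase gene Acat2 (-0.66 ± 0.06). Insig2, the other retention gene, was at 45.4, 50.7 and 56.3 TPM against 91.4, 67.7 and 77.1 TPM (log2 0.62 ± 0.16, limma adjusted p = 0.00316). Its knockout 1 library was the highest of the 6. The ester-forming Soat1 (-0.09 ± 0.12) and the lysosomal carrier Npc2 (0.08 ± 0.05) did not pass.

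The promoters of 3 of these genes are shown because the genes fell together and SREBP2 is known to act on sterol genes beside the factor NF-Y, which binds CCAAT. They are the called genes with the smallest p among those with a window in the RefSeq table of GRCm38.p6, each given as the 250 bases before the annotated start, 5′ to 3′ on the gene's strand. Capitals mark CCAAT, or ATTGG where it lies on the other strand. The windows are chrX:72918271-72918520 (plus strand), chr8:64733579-64733828 (minus strand) and chr5:4104698-4104947 (minus strand) in this order.
Nsdhl: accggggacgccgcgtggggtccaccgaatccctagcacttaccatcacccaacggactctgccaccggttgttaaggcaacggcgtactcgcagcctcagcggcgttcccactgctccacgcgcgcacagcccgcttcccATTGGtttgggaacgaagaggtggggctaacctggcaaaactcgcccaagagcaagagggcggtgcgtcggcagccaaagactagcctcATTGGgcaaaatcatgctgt
Msmo1: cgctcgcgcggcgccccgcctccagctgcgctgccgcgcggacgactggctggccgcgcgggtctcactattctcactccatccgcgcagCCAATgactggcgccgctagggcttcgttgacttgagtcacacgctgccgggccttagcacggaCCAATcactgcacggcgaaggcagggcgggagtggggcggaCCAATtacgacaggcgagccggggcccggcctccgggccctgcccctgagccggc
Cyp51: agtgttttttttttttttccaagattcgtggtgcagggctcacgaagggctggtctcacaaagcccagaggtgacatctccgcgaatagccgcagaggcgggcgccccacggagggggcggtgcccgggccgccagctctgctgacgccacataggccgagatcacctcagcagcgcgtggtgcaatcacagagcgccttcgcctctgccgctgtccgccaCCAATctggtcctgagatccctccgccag
The Nsdhl stretch holds 2 matches, the Msmo1 stretch 3 and the Cyp51 stretch 1. CCAAT was searched on either strand in windows that also take in the 50 bases after the start (300 in all). It was found in 19 of the 21 list genes that have a window (90.5%), all but Acat2 and Scap, and in 11096 of all 27025 genes with one (41.1%). The 19 include Ebp and Insig2, which were higher in knockout, and Soat1 and Npc2, which did not pass. Acat2 and Scap were lower. The part of the motif in the falls was not tested. The exact letters TCACCCCAC, a form of the sterol element also searched on both strands, were found in 1 of the 21 (Hmgcs1) and in 0.614% of all. Other forms of the element were not searched. These are matches of letters, not measured binding.

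Enzymes that make and desaturate fatty acids were also lower. Of 18 tested of 19, 11 were lower and 1 was higher, with a median of -0.49. Fads2, which begins the desaturation of polyunsaturated fatty acids, was at 586, 605 and 581 TPM in wild type and 148, 147 and 147 TPM in knockout (log2 -2.00 ± 0.05, limma adjusted p = 4.2e-18). Fads1, the other desaturase of that path, fell as well (log2 -1.62 ± 0.05, limma adjusted p = 4.58e-16). Scd2, which makes monounsaturated fatty acids in brain, was at 816, 878 and 839 TPM against 237, 248 and 248 TPM (log2 -1.78 ± 0.07, limma adjusted p = 5.42e-15). Fads2 and Scd2 were abundant in wild type, and every knockout library lay far below every wild-type one. Thrsp, a gene tied to lipid synthesis, fell too (log2 -2.68 ± 0.19, limma adjusted p = 8.94e-11). The single higher gene, the elongase Elovl1 (log2 0.21 ± 0.08, limma adjusted p = 0.0336), did not pass without wild type 1, wild type 3, knockout 2 or knockout 3, where its log2 difference was 0.17 to 0.23. Nor did Elovl1 pass under another scaling of the libraries (log2 0.15) or without the filter on low values (log2 0.21).

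Genes that bind and activate fatty acids changed in both directions. Of 16 tested, 6 were higher and 7 lower (median -0.41). Dbi, which binds acyl-CoA esters, was at 3618, 3778 and 3969 TPM in wild type and 1056, 1079 and 1074 TPM in knockout (log2 -1.82 ± 0.15, limma adjusted p = 9.59e-10). The acyl-CoA synthetases Acsbg1 (-1.79 ± 0.07) and Acsl6 (-1.81 ± 0.13) and the binding protein gene Fabp5 (-0.87 ± 0.07) were lower too. Acsl4, a synthetase that prefers arachidonic acid, was higher, at 7.8, 5.93 and 7.47 TPM against 21.8, 21.9 and 21.9 TPM (log2 1.51 ± 0.28, limma adjusted p = 0.000142). Acsl5 (0.62 ± 0.08), Fabp3 (1.20 ± 0.16) and Fabp4 (1.04 ± 0.17) were higher with it. In fatty acid oxidation, 13 of 28 were lower and 5 higher (median -0.16). Without wild type 1, and under another scaling of the libraries, the higher ones numbered 3. The mitochondrial enzyme gene Hadhb (-0.39 ± 0.05) was lower, and the nuclear receptor gene Pparg (1.52 ± 0.14) and its target Angptl4 (1.51 ± 0.15) were higher. Of 15 lipid droplet genes tested of 21, 4 were higher and 3 lower (median 0.11). The droplet coat gene Plin4 (0.68 ± 0.09) was higher, and Cidea (-0.73 ± 0.18), Bscl2 (-0.41 ± 0.08) and the lipase inhibitor gene G0s2 (-0.84 ± 0.20) were lower. In triglyceride synthesis, 3 of 14 were higher and 6 lower (median -0.07), with Gpat3 at -1.12 ± 0.09 and Dgat1, which adds the last fatty acid, at 0.40 ± 0.10.

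Among lipoprotein genes, 14 of 29 were lower and 7 higher (median -0.36), Apoe itself among the lower. Clu, the other abundant astrocyte apolipoprotein, was at 924, 1016 and 996 TPM in wild type and 441, 430.2 and 426 TPM in knockout (log2 -1.17 ± 0.06, limma adjusted p = 1.04e-13). Apod, a lipocalin found in high-density particles, was at 33.4, 36 and 32 TPM against 4.71, 4.5 and 3.28 TPM (log2 -2.76 ± 0.11, limma adjusted p = 1.05e-14). Both were lower in every knockout library than in any wild-type library. Abca1, which loads lipid onto apolipoproteins (-1.41 ± 0.19), the receptor genes Lrp2 (-1.40 ± 0.13), Lrp4 (-0.86 ± 0.10), Sorl1 (-1.89 ± 0.11) and Sort1 (-1.06 ± 0.09), and the lipase genes Lpl (-1.84 ± 0.14) and Lipg (-1.91 ± 0.08) were called lower. Vldlr, a receptor that takes up apolipoprotein E particles, rose from 6.43, 6.11 and 8.36 TPM to 24, 23.8 and 23.9 TPM (log2 1.65 ± 0.15, limma adjusted p = 6.57e-09). Lrp1 (0.39 ± 0.08), another such receptor gene, and the lipid transporter gene Abca7 (0.92 ± 0.10) were higher.

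**Figure D2:**
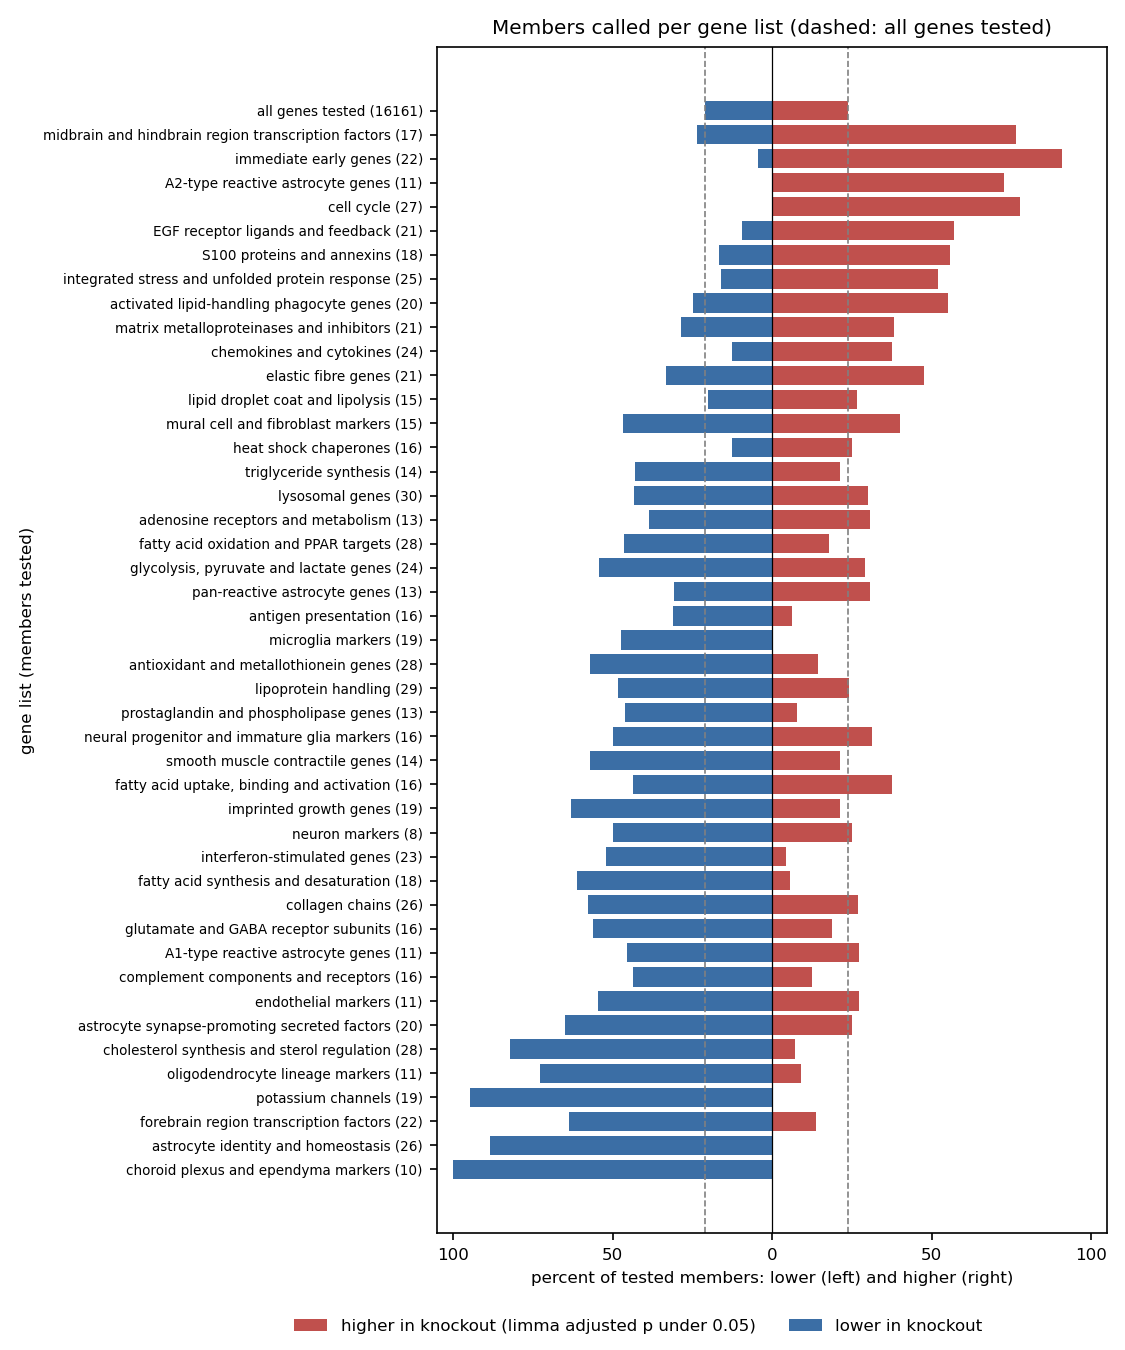
Percent of the tested members of each gene list that were called lower (left) or higher (right) in untreated Apoe knockout astrocytes, with the number tested in brackets and dashed lines at the shares of all genes tested (21.1% and 23.9%); lists are ordered by median log2 difference. Choroid plexus, astrocyte and forebrain factor genes stand at the bottom, and factors of midbrain and hindbrain, immediate early and A2-type genes at the top, below the bar of all genes.

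Genes by which astrocytes are identified were lower as a group. Of 30 markers, 26 reached the filter on low values, 23 of these were lower and 3 did not pass, and the median was -1.72. Their summed level was 8570 to 9340 TPM in wild type and 3040 to 3120 TPM in knockout. The glutamate transporter gene Slc1a3 was at 202, 217 and 228 TPM in wild type and 66.1, 62.7 and 62.7 TPM in knockout (log2 -1.74 ± 0.12, limma adjusted p = 1.04e-10). Glul, which turns glutamate into glutamine, was at 243, 268 and 267 TPM against 82.2, 79.5 and 83.9 TPM (log2 -1.65 ± 0.05, limma adjusted p = 4.03e-17). Mlc1, a membrane protein of astrocyte endfeet, was at 500.1, 547 and 549 TPM against 117, 112 and 114 TPM (log2 -2.21 ± 0.06, limma adjusted p = 9.92e-18). In each case the wild-type libraries were uniformly high and the knockout libraries uniformly low. The water channel gene Aqp4 was at 260.3, 254 and 292 TPM against 133, 129 and 138 TPM (limma adjusted p = 4.38e-05). The gap junction gene Gja1 (-1.58 ± 0.13), the glutamate transporter gene Slc1a2 (-1.71 ± 0.19) and the metabolic marker Aldh1l1 (-0.48 ± 0.12) were lower to differing degrees. Nfia (-0.09 ± 0.24), Nfib (0.16 ± 0.24) and F3 (-0.15 ± 0.10) did not pass. The libraries of both groups thus carried defining astrocyte transcripts, while Gjb6, Slc7a10, Slc6a11 and Cldn10 stayed under 1 TPM in all 6.

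Of 25 potassium channel genes listed, 19 were tested and 18 of these were lower, with a median of -1.20. Kcnk1, a background channel, was at 42.1, 44.7 and 45.9 TPM in wild type and 3.08, 3.26 and 2.84 TPM in knockout (log2 -3.48 ± 0.10, limma adjusted p = 3.09e-17). Kcnj16 (-1.94 ± 0.18), which pairs with Kcnj10, and Kcnk2 (-1.60 ± 0.10) and Kcnk10 (-1.54 ± 0.09) of the background channel family were lower. Kcnc2 did not pass (-0.36 ± 0.18). Receptor subunits for glutamate and GABA were lower in 9 of 16 and higher in 3 (median -0.57). The AMPA receptor subunits moved apart: Gria2, which makes the receptor impermeable to calcium, was at 21.1, 16.2 and 20.1 TPM against 3.08, 2.96 and 2.59 TPM (log2 -2.37 ± 0.17, limma adjusted p = 1.71e-10), and Gria1 was at 8.13, 7.88 and 9.52 TPM against 33, 30.8 and 30.9 TPM (log2 1.78 ± 0.11, limma adjusted p = 8.71e-12). Gria1 was thus the lower of the pair in wild type and the higher in knockout, on the length-scaled TPM. In a list of astrocyte genes that act on synapses, not all of them for secreted factors, 13 of 20 were lower and 5 higher (median -0.67). Gpc4, a glypican that recruits AMPA receptors, fell from 771, 756 and 742 TPM to 201, 191 and 207 TPM (log2 -1.92 ± 0.06, limma adjusted p = 1.12e-16). Sparcl1 (-1.34 ± 0.10), Bcan (-1.32 ± 0.11), Mdk (-2.55 ± 0.16) and Chrdl1 (-1.08 ± 0.19) fell with it, and the thrombospondin Thbs2 (1.22 ± 0.08), Tnc (1.19 ± 0.08) and the engulfment receptor Megf10 (1.32 ± 0.17) rose. Among adenosine genes, 4 of 13 were higher and 5 lower (median -0.10), with the A1 receptor gene Adora1 at 40.6, 48.9 and 47.9 TPM against 10.9, 10.9 and 11.4 TPM (log2 -1.95 ± 0.12, limma adjusted p = 1.96e-11). Among enzyme genes that yield adenosine or its precursors, Ahcy (0.93 ± 0.06) and Nt5e (0.69 ± 0.14) were higher, and Entpd2 (-1.17 ± 0.13) was lower. Among enzyme genes that remove adenosine or its products, Adk (-0.61 ± 0.09) and Ada (-0.39 ± 0.11) were lower and Pnp (0.40 ± 0.07) was higher. The nucleotidase gene Nt5c2 (-0.36 ± 0.09) was lower.

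The sets of reactive astrocyte genes did not move as one. Of 13 pan-reactive genes, 4 were higher and 4 lower (median -0.27). Timp1, an inhibitor of metalloproteinases, was at 105, 103 and 95.7 TPM in wild type and 534, 564 and 551 TPM in knockout (log2 2.43 ± 0.08, limma adjusted p = 4.92e-16). Cd44 (1.24 ± 0.08), Cp (1.77 ± 0.19) and Hspb1 (1.02 ± 0.09) rose, while Gfap, Serpina3n (-2.31 ± 0.08) and S1pr3 (-2.41 ± 0.10) fell. Serpina3n, a secreted protease inhibitor, was at 77.3, 85.4 and 78.8 TPM against 14.5, 16.1 and 15.6 TPM, without overlap. Steap4 was also lower (log2 -0.73 ± 0.24, limma adjusted p = 0.0147), a call lost without wild type 3 (log2 -0.68). Of 11 genes of the A2 type, a set named after ischaemic injury, 8 were higher and 3 did not pass (median 1.06). Tm4sf1 was at 136, 163 and 143 TPM against 752, 707 and 758 TPM (log2 2.32 ± 0.08, limma adjusted p = 6.81e-16). Ptx3 (1.19 ± 0.15), Clcf1 (1.15 ± 0.05) and Ptgs2 (1.12 ± 0.23) rose with it, and Cd14 (0.44 ± 0.23), S100a10 (-0.01 ± 0.05) and Tgm1 (-0.42 ± 0.23) did not pass. Cd14 was nevertheless at 10.55, 10.36 and 10.34 TPM against 14.4, 14.21 and 14.75 TPM, without overlap. Of 11 genes of the A1 type, a set named after inflammatory stimulation, 3 were higher and 5 lower (median -0.57). H2-T23 (1.02 ± 0.10), whose family can share reads, and Fkbp5 (1.00 ± 0.12) rose, and Serping1 (-1.25 ± 0.14), Fbln5 (-1.25 ± 0.06) and Srgn (-0.94 ± 0.18) fell.

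Immediate early genes, which growth factors and activity induce within minutes, were higher in 20 of 22, with 1 lower and a median of 1.07. Nr4a1, a nuclear receptor without a known classical ligand, was at 2.59, 3.31 and 2.6 TPM in wild type and 50.2, 46 and 49.8 TPM in knockout (log2 3.70 ± 0.15, limma adjusted p = 1.07e-14). Junb, a subunit of the AP-1 factor, was at 24.9, 25.9 and 25.6 TPM against 191, 182 and 194 TPM (log2 2.84 ± 0.14, limma adjusted p = 2.36e-13). Egr1 was at 21.5, 23.6 and 20.9 TPM against 199.6, 192 and 198 TPM (log2 3.11 ± 0.28, limma adjusted p = 7.66e-09). The wild-type libraries were low for all 3, without overlap. Fosl1 (2.51 ± 0.30), Egr3 (2.71 ± 0.15), Ier2 (2.25 ± 0.20), Fos (1.41 ± 0.22) and Arc (1.39 ± 0.16) rose as well, Jun did not pass (-0.04 ± 0.06), and Nr4a3 fell (-0.80 ± 0.19). Ligands of the EGF receptor are one class of signal known to induce such genes. In a list of 21 such ligands and feedback genes, 12 were higher and 2 lower (median 0.36). Areg, amphiregulin, was at 0.22, 0.29 and 0.32 TPM in wild type and 61.9, 60.4 and 55.4 TPM in knockout (log2 5.56 ± 0.12, limma adjusted p = 7.06e-19). Ereg, epiregulin, was at 1, 1.34 and 1.19 TPM against 29.9, 29.4 and 29.8 TPM (log2 3.82 ± 0.26, limma adjusted p = 6.97e-11). Both were close to 1 TPM or under it in wild type and well above it in knockout. Tgfa (1.26 ± 0.10) and Btc (0.74 ± 0.20) rose, the receptor gene Egfr did not pass (-0.12 ± 0.10), and the feedback phosphatase genes Dusp5 (1.20 ± 0.09) and Dusp6 (0.45 ± 0.10) rose.

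Of 27 cell cycle genes, 21 were higher and 6 did not pass (median 0.53). Ccnd1, the cyclin that answers to growth signals, was at 929, 934 and 876 TPM in wild type and 1449, 1461 and 1490.3 TPM in knockout (log2 0.68 ± 0.06, limma adjusted p = 1.19e-08). Mki67, a marker of dividing cells, was at 35.7, 20.5 and 33.2 TPM against 57.9, 59.5 and 60.2 TPM (log2 1.01 ± 0.25, limma adjusted p = 0.00255). The replication helicase gene Mcm6 (0.66 ± 0.05) and the mitotic genes Ccnb2 (0.80 ± 0.05) and Bub1b (0.80 ± 0.08) rose, and Top2a (0.36 ± 0.19), Cdk1 (0.13 ± 0.13) and Pcna (-0.08 ± 0.10) did not pass. S100 proteins and annexins, calcium-binding proteins, were higher in 10 of 18 and lower in 3 (median 0.31). S100a6 was at 978, 966 and 961 TPM against 3758, 3740.3 and 3770.3 TPM (log2 1.95 ± 0.07, limma adjusted p = 1.01e-15). Anxa8 (3.07 ± 0.11), S100a4 (1.43 ± 0.06) and Anxa2 (0.83 ± 0.05) rose, and the astrocyte marker S100b fell (-0.57 ± 0.13).

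Immune genes changed by class. Interferon-stimulated genes were lower in 12 of 23 tested and higher in 1 (median -0.46). Bst2, which tethers virus particles to the cell, was at 139.8, 170.1 and 147 TPM in wild type and 90.2, 86.2 and 86.1 TPM in knockout (log2 -0.79 ± 0.13, limma adjusted p = 2.76e-05). Usp18 (-1.20 ± 0.26), Oasl2 (-1.14 ± 0.26) and Isg15 (-0.86 ± 0.32) were lower, and Ifit1 (-0.90 ± 0.38), Irf7 (-0.37 ± 0.22) and Rsad2 (-0.49 ± 0.20) did not pass. The single higher gene, Mx2 (log2 0.73 ± 0.24, limma adjusted p = 0.0154), did not pass without wild type 2, knockout 2 or knockout 3 (log2 0.64 to 0.67). In the complement list, 7 of 16 were lower and 2 higher (median -0.58). Cd55, which protects cells from complement, was at 7.71, 6.89 and 5.83 TPM against 1.49, 1.51 and 1.37 TPM (log2 -1.66 ± 0.14, limma adjusted p = 2.85e-09). The regulators Cd59a (-0.79 ± 0.08, which has a close copy) and Serping1 (-1.25 ± 0.14) were lower. C1s1, a protease of the classical pathway whose reads could be shared with a close copy, was higher, at 22.7, 23.9 and 23.7 TPM against 125, 119 and 129 TPM (log2 2.36 ± 0.13, limma adjusted p = 2.32e-12). Of 24 chemokines and cytokines, 9 were higher and 3 lower (median 0.13). Beside Il33, the growth factor Tgfb1 rose from 12.8, 14.4 and 13.2 TPM to 61.6, 63 and 67.1 TPM (log2 2.17 ± 0.09, limma adjusted p = 2.22e-14). Ccl2 (1.67 ± 0.66), Cxcl1 (1.64 ± 0.64), Cxcl12 (1.10 ± 0.08) and Cx3cl1 (0.99 ± 0.07) rose, Cxcl14 (-1.28 ± 0.07) and Tgfb2 (-0.91 ± 0.12) fell, and Tnf (-0.07 ± 0.47), Il6 (0.52 ± 0.31) and Cxcl10 (-1.12 ± 0.58) did not pass.

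Matrix genes changed in both directions, also within 1 protein. Of 26 collagen chains, 15 were lower and 7 higher (median -0.52). The chains of collagen I went apart: Col1a1 was at 404, 408 and 375 TPM in wild type and 794, 782 and 835 TPM in knockout (log2 1.02 ± 0.08, limma adjusted p = 9.68e-10), and Col1a2 was at 404, 406 and 385 TPM against 65.3, 65.7 and 68.2 TPM (log2 -2.57 ± 0.06, limma adjusted p = 5.44e-19). The pair stood at nearly equal TPM in wild type, whereas in knockout Col1a1 lay far above Col1a2 in all libraries. The basement membrane chains Col4a1 (-1.44 ± 0.09), Col4a2 (-1.53 ± 0.08) and Col18a1 (-1.74 ± 0.08) were lower, and Col6a1 (1.33 ± 0.05), Col6a2 (1.18 ± 0.08) and Col15a1 (1.82 ± 0.16) higher. Of 21 elastic fibre genes, 10 were higher and 7 lower (median 0.12). Ltbp1, which holds latent TGF-beta in the matrix, was at 18.3, 17.1 and 17.1 TPM against 141, 142 and 142 TPM (log2 2.95 ± 0.08, limma adjusted p = 2.75e-17), against the falls of Eln, Mfap4 and Efemp1 (-2.41 ± 0.08). Fn1, fibronectin, was at 901, 928 and 883 TPM against 3911, 4039 and 4152 TPM (log2 2.16 ± 0.10, limma adjusted p = 7.42e-14), and Spp1, osteopontin, was at 214, 205 and 201 TPM against 1613, 1591 and 1585 TPM (log2 2.94 ± 0.22, limma adjusted p = 2.75e-10). Both of these secreted adhesion proteins had every knockout library above every wild-type one. Of 21 metalloproteinases and inhibitors, 8 were higher and 6 lower (median 0.13), with Mmp14 at 0.92 ± 0.04 and Mmp15 at -1.91 ± 0.11.

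In metabolism and defence against oxidation, falls were the more frequent. Of 28 antioxidant and metallothionein genes, 16 were lower and 4 higher (median -0.32). Prdx6, a peroxidase rich in astrocytes, was at 1001, 1035 and 1038 TPM in wild type and 306, 291 and 299 TPM in knockout (log2 -1.78 ± 0.06, limma adjusted p = 7.07e-16). Mt3, a brain metallothionein, was at 2975, 3319 and 3202 TPM against 796, 785 and 878 TPM (log2 -1.95 ± 0.08, limma adjusted p = 7.47e-15). Gstm1 (-1.92 ± 0.07), whose family can share reads, Gsta4 (-1.43 ± 0.06), Mt1 (-1.45 ± 0.07), Mt2 (-1.59 ± 0.07) and the regulator Nfe2l2 (-0.97 ± 0.09) were lower, and extracellular Sod3 was higher (1.26 ± 0.07). Of 24 genes of glycolysis, pyruvate and lactate, 13 were lower and 7 higher (median -0.24), or 4 higher under another scaling of the libraries. The subunits of lactate dehydrogenase moved apart, with Ldhb at 1069, 1123 and 1141 TPM against 389, 373 and 383 TPM (log2 -1.54 ± 0.05, limma adjusted p = 1.1e-16) and Ldha at 603, 622 and 589 TPM against 816, 802 and 835 TPM (log2 0.44 ± 0.06, limma adjusted p = 4.05e-06). Ldhb exceeded Ldha in all wild-type libraries and lay below it in all knockout libraries. The lactate exporter gene Slc16a1 (-1.43 ± 0.11), the glucose transporter gene Slc2a1 (-0.81 ± 0.06) and Pfkfb3 (-1.39 ± 0.11) were lower.

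Transcription factors that mark regions of the developing brain separated the groups, with factors of midbrain and hindbrain high in knockout. Of 34 such factors, 17 reached the filter, 13 were higher, 4 were lower and the median was 2.16. Members that were under 1 TPM in all untreated wild-type libraries, such as En1, Pax8 and Hoxa2, passed the filter only through the groups where they were high, so the count is a description. En2, an engrailed factor of the midbrain and hindbrain boundary, was at 1.05, 1.01 and 1.02 TPM in wild type and 112, 108 and 112 TPM in knockout (log2 5.78 ± 0.12, limma adjusted p = 2.07e-19). En1, its relative, was at 0.39, 0.5 and 0.15 TPM against 39, 34.5 and 32.1 TPM (log2 4.75 ± 0.11, limma adjusted p = 1.4e-18). Irx1 had 7.93, 9.74 and 8.23 TPM against 78.6, 79.3 and 80 TPM (log2 3.06 ± 0.14, limma adjusted p = 1.07e-13). These factors were near 1 TPM or at single digits in every untreated wild-type library. Irx2 (3.35 ± 0.17), Lmx1b (3.29 ± 0.14), Pax8 (2.89 ± 0.16), Gbx2 (2.41 ± 0.17) and Pax2 (2.16 ± 0.11) rose, and Lmx1a (-1.34 ± 0.12), Gata2 (-1.43 ± 0.23), Otx2 (-0.67 ± 0.11) and Tfap2b (-1.10 ± 0.19) fell. Forebrain factors were lower in 14 of 22 tested and higher in 3 (median -1.33), and without wild type 3 the higher ones numbered 1. Lhx2, a factor of the developing cortex, was at 87.9, 95.8 and 96.6 TPM against 18.6, 17 and 19.7 TPM (log2 -2.28 ± 0.09, limma adjusted p = 5.69e-15). Emx2 (-2.32 ± 0.23), Nr2e1 (-2.32 ± 0.10), Zic2 (-2.17 ± 0.09) and Pax6 (-1.53 ± 0.10) fell, and Lhx2 stayed above 10 TPM in every knockout library.

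The region factors also differed among wild-type cultures. En2 was at 1.19, 0.87 and 0.95 TPM in wild-type libraries given neuronal medium, at 93.7, 92.6 and 99.1 TPM in those given oleic acid and at 7.52, 6.9 and 6.99 TPM in those given palmitic acid. Foxa2, a floor plate factor chosen after its values were seen, was at 0.12, 0.08 and 0.25 TPM in untreated wild type, 18.5, 29.5 and 26.9 TPM in wild type with oleic acid and 16.7, 13.4 and 16.1 TPM with palmitic acid. It was at 45.6, 48.4 and 48.5 TPM in untreated knockout. Wild-type cultures with oleic acid therefore carried En2 near the untreated knockout level, while untreated wild-type cultures did not. Ddx3y also differed among wild-type cultures, at 19.1, 14.9 and 18.8 TPM untreated and 1.27, 0.52 and 1.35 TPM with oleic acid. Knockout libraries with neuronal medium lay between the untreated groups, with Gfap at 321, 318 and 337 TPM, En2 at 56.7, 56.1 and 56.3 TPM and Apoe at 113, 113 and 118 TPM. Whether these values move with the gene groups described above was not tested, nor was their part in those differences.

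**Figure D3:**
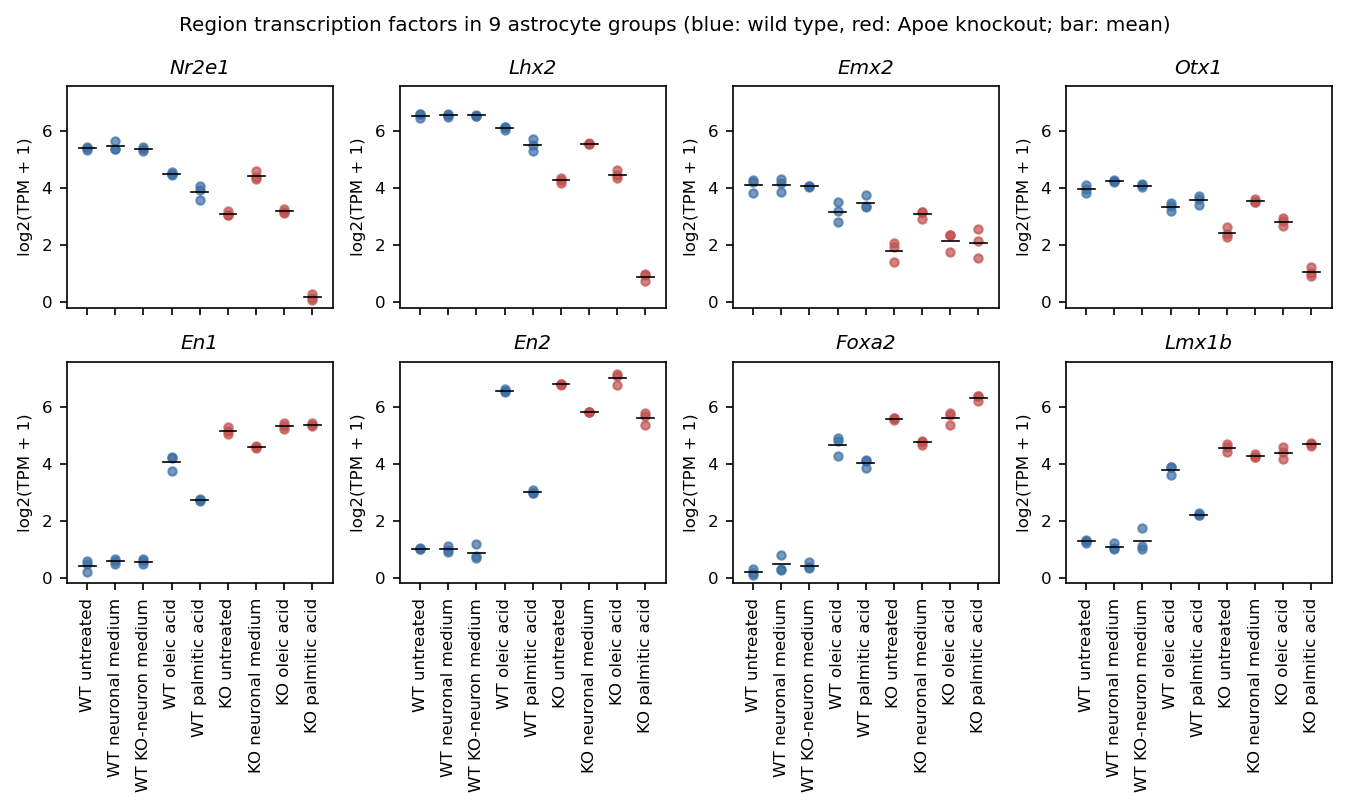
Levels of 4 forebrain factors (top) and 4 factors of midbrain and hindbrain (bottom) on the log2(TPM + 1) scale in the 9 astrocyte groups, 1 point per library and a bar at the mean; blue is wild type (WT) and red Apoe knockout (KO), and KO-neuron medium is medium from Apoe knockout neurons. En2 in untreated wild type (1.01 to 1.05 TPM) lies far below untreated knockout (108 to 112 TPM), and wild type with oleic acid lies close to the latter.

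Markers of other cells that the cultures could hold were also compared. Of 19 microglia markers tested of 20, 9 were lower and 10 did not pass (median -0.32). Their summed level was 625 to 691 TPM in wild type and 539 to 574 TPM in knockout, with Siglech at 0 TPM in 5 libraries. Cx3cr1, the fractalkine receptor of microglia, was at 12.4, 14.8 and 13.8 TPM against 7.51, 7.27 and 6.69 TPM (log2 -0.85 ± 0.09, limma adjusted p = 3.46e-08), and the complement genes C1qa, C1qb and C1qc did not pass. Oligodendrocyte lineage markers, of which 11 of 18 were tested, were lower in 8 and higher in 1 (median -0.90), and their sum was 585 to 632 TPM against 239 to 262 TPM. Olig1, which astrocyte precursors also express, was at 297, 313 and 306 TPM against 57.8, 58.5 and 58 TPM (log2 -2.37 ± 0.10, limma adjusted p = 8.43e-15), while Mbp, a myelin protein gene, was at 1.28, 1.35 and 2.39 TPM against 10.8, 10.2 and 9.49 TPM (log2 2.09 ± 0.16, limma adjusted p = 5.46e-10). All 10 choroid plexus and ependyma markers tested were lower (15 listed, median -1.74, sum 272 to 328 TPM against 124 to 129 TPM), with Folr1 at -2.31 ± 0.19. Otx2, counted above among the region factors, is also among these markers. Endothelial markers were lower in 6 and higher in 3 of 11 tested (median -0.63, sum 167 to 177 TPM against 53.6 to 65.5 TPM). Slco1a4, an anion transporter gene (-2.33 ± 0.18), made up most of the wild-type sum, and Cldn5 was at 0 in all 6. Of 8 neuron markers tested of 18, 4 were lower and 2 higher (sum 446 to 480 TPM against 281 to 287 TPM). Most of that sum was Stmn2, at 335, 317 and 305 TPM against 219, 219 and 214 TPM, and the pan-neuronal Rbfox3 and Snap25 were under 1 TPM in all 6. Markers of mural cells and fibroblasts were higher in 6 and lower in 7 of 15 tested (median 0.03, sum 8880 to 9590 TPM against 10400 to 10700 TPM). Most of the wild-type sum was Acta2 and Tagln, both lower in every knockout library. Acta2 was at 4045, 4133 and 3743 TPM against 2941, 2966 and 2969 TPM. Tagln was at 3124, 3136 and 2886 TPM against 2390, 2296 and 2347 TPM. The higher knockout sum rests on Fn1, at 901, 928 and 883 TPM against 3911, 4039 and 4152 TPM. Col1a1 also rose, and Col1a2 and Col3a1 fell. The part of these cells in the differences above was not tested.

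The genotype difference was next read in the other pairs of astrocyte groups, which share no library with the untreated pair. These are knockout against wild type under medium from neurons, under oleic acid and under palmitic acid, each with 3 libraries a group. Of the 3855 genes higher in untreated knockout, 1529 (39.7%) were also higher under neuronal medium, where 12.2% of all genes were. Under oleic acid 1338 (34.7%) were higher, against 14.7% of all genes, and under palmitic acid 1420 (36.8%), against 18.2%. Of the 3403 lower genes, 1202 (35.3%), 1534 (45.1%) and 2330 (68.5%) were lower under neuronal medium, oleic acid and palmitic acid, where 9.2%, 18.5% and 48.5% of all genes were. In all 3 other pairs, 371 of the higher genes (9.62%) and 541 of the lower genes (15.9%) were called in the untreated direction, where 2.44% of all genes were higher and 3.41% lower in those 3 pairs. Calls in the opposite direction were most numerous among higher genes under palmitic acid, at 1276 (33.1%). The genotype difference itself differed from the untreated one for 18.5%, 29.6% and 57.6% of all genes under neuronal medium, oleic acid and palmitic acid by limma's interaction test. The 3 knockout palmitic acid libraries stood apart, with 12057 to 12915 genes at 1 TPM or more.

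The largest rises and falls were called again in most of the other pairs. They were chosen by the size of the untreated difference, so that a smaller one elsewhere can follow from the choice and is not read as a result. All 15 rises were called higher under neuronal medium, 10 under oleic acid and 14 under palmitic acid. Of the 15 falls, 14, 10 and 15 were called lower under neuronal medium, oleic acid and palmitic acid, and 4 were called higher under oleic acid. Il33 showed log2 differences of 3.41, 1.60 and 3.46 in the 3 pairs, all called. Wif1 was called at 4.63 under neuronal medium, and at -0.01 under oleic acid it did not pass. Gfap was lower in all, by log2 differences of -2.01, -2.43 and -6.37. The elastic and fibrillar genes Eln (0.77), Mfap4 (0.53) and Col3a1 (0.77) were called higher under oleic acid, opposite to their untreated fall. Among genes called in the same direction in all 4 pairs, chosen after their values were seen, were the chemokine gene Cxcl15 (untreated 5.70, smallest 2.57), Fgf7, Stc1, Areg and Tnfrsf11b on the higher side. On the lower side were Kcnk1, Kcnj10, the WNT ligand gene Wnt7a (untreated -3.42) and the glutamine transporter gene Slc38a3 (untreated -2.45).

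Gene groups recurred unevenly. Their counts in each pair are to be read against that pair's own shares of all genes, given above, which were much larger for lower genes under palmitic acid (48.5%) than under neuronal medium (9.2%) or oleic acid (18.5%). Astrocyte markers were lower in 18 of 26 under neuronal medium, in 18 under oleic acid, where 3 were higher, and in all 26 under palmitic acid. Potassium channel genes were lower in 13, 8 and 16 of 19 under neuronal medium, oleic acid and palmitic acid. Cholesterol genes were lower in 5 of 28 and higher in 1 under neuronal medium, and lower in 23 under oleic acid. Under palmitic acid 21 of them were higher, where 18.2% of all genes were, and the other 7 did not pass. Their interaction with the untreated difference passed for 21, 11 and 26 of 28 under neuronal medium, oleic acid and palmitic acid, beside 18.5%, 29.6% and 57.6% of all genes. Immediate early genes were higher in 16 of 22 under neuronal medium. Under oleic acid 1 was higher and 10 were lower, and under palmitic acid 10 were higher and 9 lower. Their interaction passed for 8, 20 and 18 of 22. Cell cycle genes were higher in 1 and lower in 12 of 27 under neuronal medium, higher in 26 under oleic acid and lower in 27 under palmitic acid. Midbrain and hindbrain factors were higher in 13, 13 and 8 of 17 and lower in 3, 2 and 3 under neuronal medium, oleic acid and palmitic acid.

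**Figure D4:**
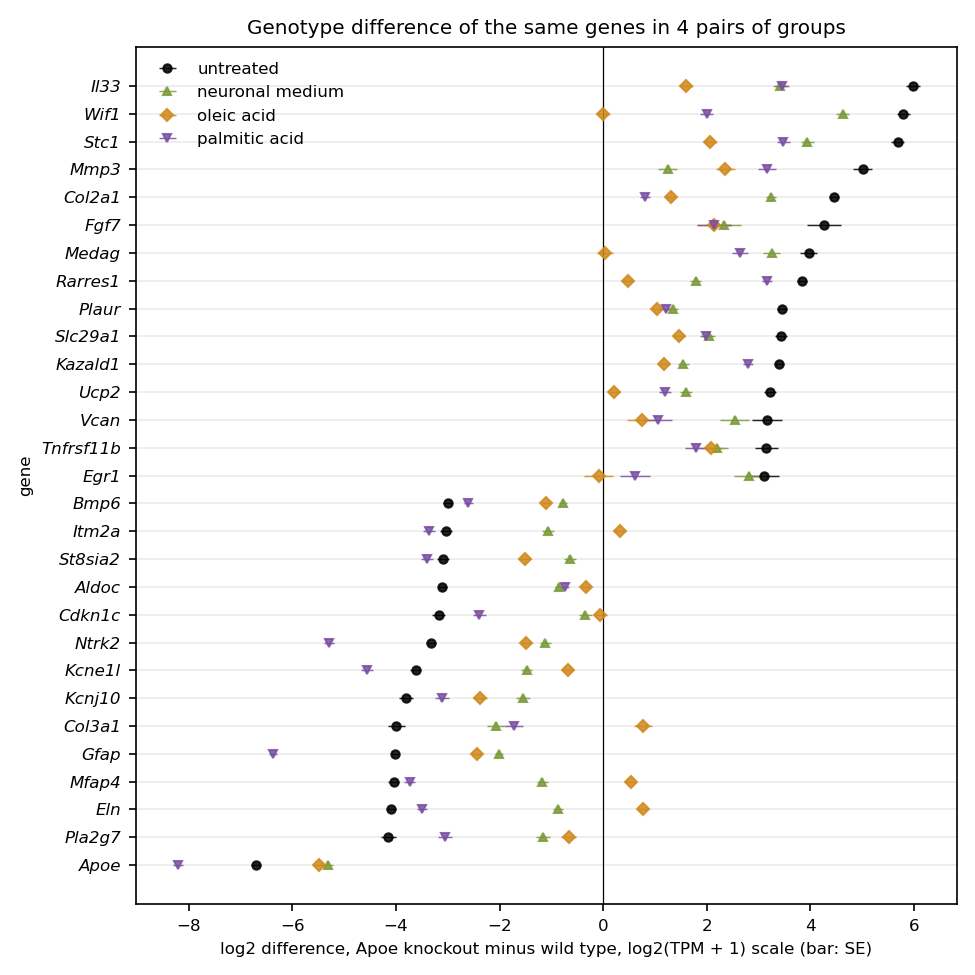
Log2 difference, Apoe knockout minus wild type on the log2(TPM + 1) scale, with its SE, of the 15 largest rises and 14 of the 15 largest falls of the untreated pair, in 4 pairs of groups of 3 libraries each. Apoe and Gfap lie left of 0 in all pairs, while Eln, Mfap4 and Col3a1 lie right of 0 under oleic acid (0.53 to 0.77).

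Genes near Apoe on chromosome 7 were read separately, since genes linked to a targeted locus can differ between the lines, which was not tested. Of 39 protein-coding genes tested within 1 Mb of Apoe, 17 were higher and 6 lower, 59% in all. The share called was 46% of 50 genes at 1 to 5 Mb, 42% of 269 at 5 to 20 Mb, 50.7% of 691 farther on the chromosome and 47.7% of 12756 on other chromosomes. Calls in the same direction in all 4 genotype pairs made up 5.13% of the genes within 1 Mb, 8% at 1 to 5 Mb and 5.58% at 5 to 20 Mb, beside 6.15% on other chromosomes. The nearest called gene, Apoc1, an apolipoprotein beside Apoe, was at 2.72, 3.53 and 4.55 TPM in wild type and 0.37, 0.84 and 0.41 TPM in knockout (log2 -1.57 ± 0.43, limma adjusted p = 0.00486). Bcam (-0.48 ± 0.09) was lower, and Relb (1.11 ± 0.20), Clasrp (0.74 ± 0.10) and Bcl3 (1.64 ± 0.30) were higher. Nectin2 was lower (log2 -0.16 ± 0.06, limma adjusted p = 0.0259), a call lost without wild type 2, wild type 3, knockout 2 or knockout 3 (log2 -0.15 to -0.12), yet called lower in the other 3 pairs. Tomm40, which adjoins Apoe, did not pass (log2 0.12 ± 0.07). The largest differences within 20 Mb were in Plaur, Tgfb1, 2200002D01Rik (log2 3.52 ± 0.17) and Zfp428 (log2 -2.38 ± 0.12), which were called in the same direction in all 4 pairs.

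**Figure D5:**
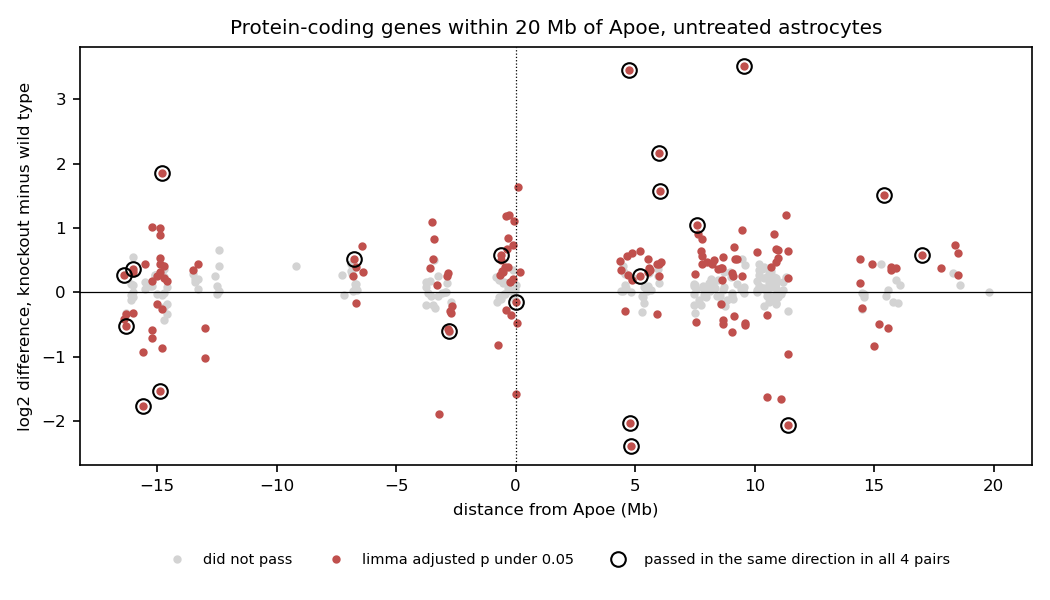
Log2 difference of protein-coding genes tested within 20 Mb of Apoe in untreated knockout against wild-type astrocytes, by distance from Apoe in Mb (positive towards higher coordinates); red points were called and rings mark those called in the same direction in all 4 genotype pairs. Called genes lie on both sides of Apoe and in both directions, and 21 of the 358 genes are ringed.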

How the data were processed

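RNA-seq values were analysed for 27 primary astrocyte libraries in 9 groups of 3, of which 6 untreated libraries were compared. The authors deposited gene levels in TPM. The submitters' processing notes name HISAT2, StringTie, RSEM and the mouse build mm10, without saying what each did. No counts of reads were used, so depth is unknown and no counting interval is given. RNA extraction is described in the labels' protocols for frozen brain only.

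Libraries were matched to groups by title. TPM values were taken to log2(TPM + 1), genes were kept at 1 TPM or more in at least 3 of the 27 libraries (16161 of 53700), and all 9 groups were fitted in limma 3.58.1 (R 4.3.3) with a mean-variance trend and 18 residual degrees of freedom. The Benjamini-Hochberg adjustment ran over all genes tested, and the threshold was 0.05. The fit was tested on simulated data. Positions came from GENCODE M21 (16096 genes matched, 99.6%) and promoters from RefSeq on GRCm38.p6.

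Named genes are Apoe, Gfap, Plin2, Adora2a, Xist and Ddx3y. To these come the 15 largest rises and falls above the median level without overlap between groups, and the 4 members of each list with the smallest p in each direction (all where 6 or fewer passed). On chromosome 7 the 6 called genes nearest to Apoe and the 4 with the largest difference were named. Some genes that the rule picks are not reported here. The compared groups, the 45 lists and the rule were chosen with earlier results of these data known. Alternatives were another scaling, pseudocount and filter, a fit of only the 6 libraries, a replicate block, leaving out each library or both libraries titled mix, a fold minimum and, chosen after seeing the data, leaving out the palmitic acid libraries.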

Additional observations from a re-analysis of the deposited data

Results flagged for a closer look

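The genotype difference of the 34 genes named by level and size (the 15 largest rises, the 15 largest falls and the other genes named in every case) was tested against the untreated one in the other genotype pairs, by limma's interaction terms adjusted over all genes tested. It differed from the untreated difference for 29 of them under neuronal medium, 33 under oleic acid and 29 under palmitic acid, where 18.5%, 29.6% and 57.6% of all genes did. Since 30 of these genes were chosen by the size of their untreated difference, a different and smaller value elsewhere can follow from that choice, and the excess over all genes is not read as a result. No explanation of these differences was tested.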

How the results depend on the processing

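The groups hold 3 libraries each, depth is unknown, and genotype, sex-linked and regional markers differ together, so they cannot be told apart. Against 3855 higher and 3403 lower genes, a minimum log2 difference of 1 left 642 and 1070. Leaving out each library in turn gave 3276 to 3473 higher and 3051 to 3209 lower genes. Median-ratio scaling gave 3206 and 3912 and moved the median of all genes from 0.05 to -0.00385, and the medians of the heat shock and mural lists then changed sign. A fit of only the 6 libraries gave 4711 and 3792, and leaving out the palmitic acid libraries, chosen after seeing the data, gave 4280 and 3615. The other settings stayed within 1.5 times, and no named gene changed direction under any setting run. Across genes and settings, 62 calls were lost and 4 were gained, against 4482 that kept their side of the threshold. Of the members' counts, 55 moved by over 1.5 times and 1295 did not.

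Replicate numbers did not pair the libraries, since deviations of same-numbered libraries correlated at -0.00389, 0.0556 and 0.0313. With a replicate block the counts were 3776 higher and 3364 lower over all libraries, and 4509 and 3651 over the 6.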

Other observations

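Further gene groups of the untreated comparison belong to no comparison above. Of 25 genes of the integrated stress and unfolded protein response, 13 were higher and 4 lower (median log2 difference 0.27, all genes 0.05), and without wild type 2 the lower ones numbered 2. Asns, which makes asparagine, rose by 0.87 ± 0.06, and Ddit4, an inhibitor of mTOR signalling, fell by 0.90 on the log2 scale. Of 13 prostaglandin and phospholipase genes, 6 were lower and 1 was higher (median -0.39), or 2 without wild type 2. Ptgds, which makes prostaglandin D, was at 7.45, 7.92 and 8.13 TPM in wild type and 1.14, 1.5 and 0.92 TPM in knockout, while Ptgs2, the inducible cyclooxygenase, was the higher one (log2 1.12 ± 0.23). Of 30 lysosomal genes, 13 were lower and 9 higher (median -0.10), with 5 higher without knockout 1 and 2 under median-ratio scaling. The protease gene Ctsk differed most, at 10.8, 11.2 and 12.1 TPM against 0.81, 0.68 and 0.88 TPM.

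Of 20 genes of lipid-handling phagocytes, 11 were higher and 5 lower, Apoe among the lower (median 0.26). Igf1, a growth factor, was at 40, 37 and 39.7 TPM in wild type and 179, 190.0 and 177 TPM in knockout, and Axl, a receptor for dying cells, at 94.8, 104 and 98.8 TPM against 293, 292 and 307 TPM. The microglial receptor gene Trem2 (-0.20 ± 0.16) and its adaptor Tyrobp (-0.08 ± 0.11) did not pass. Of 19 imprinted growth genes, 12 were lower and 4 higher (median -0.43), with Nnat at 19, 18.8 and 20.9 TPM against 4.92, 5.06 and 3.84 TPM and Meg3 at 118, 95.5 and 98.5 TPM against 198, 162 and 196 TPM. Of 14 smooth muscle genes, 8 were lower and 3 higher (median -0.40), or 1 higher under median-ratio scaling, with Actg2, an enteric actin, at -2.52 ± 0.14. Of 16 progenitor and immature glia markers, 8 were lower and 5 higher (median -0.40). The Notch target Hes1 rose by 0.80 ± 0.11 on the log2 scale.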
